A study of Mus musculus with 8 samples.

Results

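The rows of the replication-dependent histone genes were taken from a table of read counts of cultured mouse limb buds: the 57 genes, of 21692 in the table, whose symbol starts with Hist1h, Hist2h, Hist3h or Hist4h. By symbol they belong to the linker histone H1 (5 genes) and the core histones H2A (13), H2B (17), H3 (10) and H4 (12). Hist1h2aj and Hist3h2bb-ps among them are pseudogenes in the authors' table. RNA was sequenced from forelimb buds of CD1 mouse embryos of gestation day 13 after 24 h in culture. One group of 4 libraries (vehicle 1 to 4) received only the solvent dimethyl sulfoxide (DMSO). The other group of 4 (OPE 1 to 4) received organophosphate esters (OPE), a class of flame retardants and plasticisers, blended after house dust and diluted 1 in 300000. Whether replicates are separate litters or cultures is not in the labels; p-values thus measure only the spread between these libraries, which may be partly technical.

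Cells make most of their histones during S phase, when new DNA has to be packed. The messages of the replication-dependent genes differ from other messenger RNAs in how they end: instead of a poly-A tail they close with a short stem-loop, which is bound by the protein SLBP and at which the message is cut. Some of these genes also give polyadenylated messages, formed at a signal beyond the stem-loop, and these forms are known from cells that leave the cell cycle and differentiate. The libraries were made from RNA held on poly-T beads, so a read from one of these genes comes from RNA that stayed on the beads; whether it carried a tail was not tested. In whole tissue, fewer cells of a type and less RNA per cell cannot be told apart.

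The stem-loop was looked up in the GENCODE M21 transcripts of the mouse reference genome (build GRCm38). It was searched as GGNNCT, a loop of 4 letters starting with T, and AGNNCC, with both arms complementary. It was present in 38 of the 57 genes and in 26 of 21834 other protein-coding genes (0.119%). The sequences are shown because they are the feature by which these messages are told from polyadenylated ones. Written as DNA of the message strand, 5′ to 3′, with the loop in capitals, the commonest form and the others were:
Hist1h1c: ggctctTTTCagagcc
Hist1h3c: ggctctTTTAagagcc
Hist2h2ac: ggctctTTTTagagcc
Hist1h3g: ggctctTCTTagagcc
Hist1h4d: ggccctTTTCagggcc
Hist1h4i: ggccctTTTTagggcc
Hist1h4a: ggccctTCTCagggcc
Hist1h4j: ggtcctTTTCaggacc
The stem GGCTCT was found in 27 genes, GGCCCT in 10 and GGTCCT in Hist1h4j alone. The loop was TTTC in 28 genes, TTTA in 5, TTTT in 3 and a form with C at its second letter in Hist1h4a and Hist1h3g. The stem-loop began 21 to 54 bases after the stop codon.

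Few reads came from these genes. Together they held 17152 of 147199632 reads counted to genes, a share of 0.0117%. The libraries held 14986793 to 22006738 counted reads each. Every one of the 57 genes had at least 3 reads over the 8 libraries. The table holds no gene without a read, and 13 other genes with such names in GENCODE M21 have no row under their symbol. Whether these 13 had no reads or were not in the authors' annotation is not known. The shares that follow thus cover only genes with a read. Reads were present in all 8 libraries for 36 of the 57 genes (63.2%), against 78.6% of all genes in the table. At least 10 reads in every library were reached by 9 of them (15.8%), against 65.2% of all genes. On the scale of FPKM, counts divided by gene length and library total, the median of the members was 0.551 and that of all genes 2.97.

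The reads were concentrated in a few genes. Hist1h1c, Hist3h2ba, Hist2h2be and Hist1h2bc held 73.3% of all reads of the 57 genes, and the first 10 genes held 88.2%. The other 47 genes shared 2026 reads, 43 genes had fewer than 100 in all libraries together, and 14 had fewer than 20. The lowest was Hist1h2bq, an H2B gene with 3 reads in all. Between 46 and 53 of the 57 genes had a read in a given library, and 46 to 52 once all libraries were reduced to the same number of reads. A count of 0 in a library allows up to 3 reads, which is 0.136 to 0.200 CPM (counts scaled to library size) at these depths and covers counting error only.

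**Figure D1:**
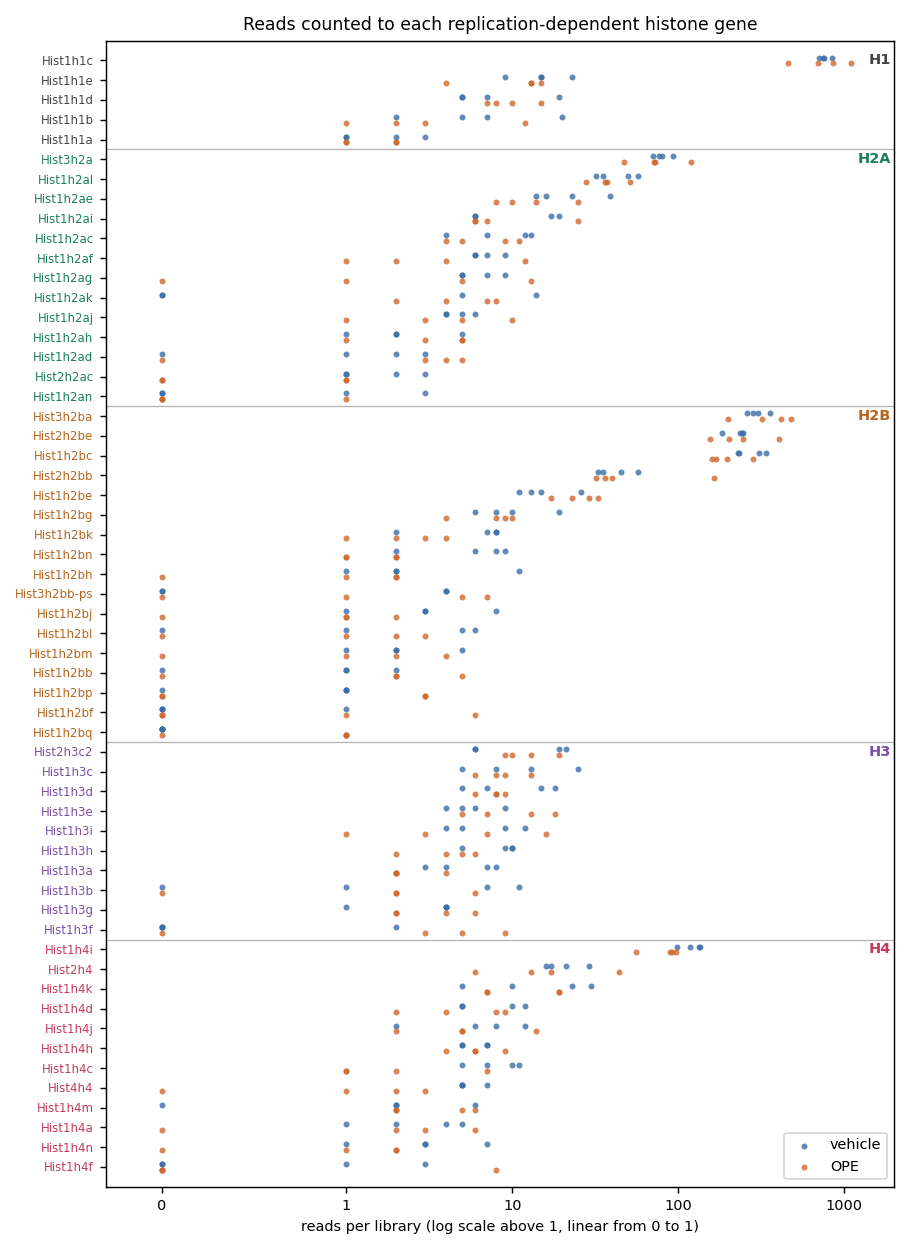
Reads per library (horizontal axis, log scale above 1 and linear from 0 to 1) for each of the 57 genes, ordered within each histone type by their total; each point is 1 library, blue for vehicle and orange for OPE. Hist1h1c stands highest, with 459 to 1093 reads per library, while 21 genes have at least 1 library at 0.

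The linker histone H1 compacts the DNA between nucleosomes. All 5 H1 genes had reads in all 8 libraries, and they held 37.3% of the reads of the 57 genes. Hist1h1c (chr13:23738808-23740367) gave 744, 847, 701 and 753 reads in vehicle 1 to 4 and 1093, 696, 858 and 459 in OPE 1 to 4. In reads not scaled for depth it was highest in OPE 1 and lowest in OPE 4, and the groups overlapped. In FPKM it was highest in OPE 3 (35.4, against 32.1 in OPE 1). It held 96.1% of the H1 reads, at a mean of 26.9 FPKM. The other 4 H1 genes had 13 to 107 reads each and a median of 0.565 FPKM.

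H2A and H2B form dimers on the outside of the nucleosome. Of the 13 H2A genes, 8 had reads in all libraries, and the type held 8.67% of the reads. Hist3h2a led in reads (chr11:58954685-58956830), with 77, 80, 93 and 70 reads in vehicle and 119, 71, 72 and 47 in OPE, at a mean of 1.99 FPKM. Its row overlaps on the same strand with Trim17, which had 618 reads against 629 for Hist3h2a, so the assignment of reads between both is uncertain. Per length the highest H2A gene was Hist1h2al at 5.85 FPKM, with 35, 50, 32 and 57 reads in vehicle and 51, 36, 37 and 28 in OPE. Hist1h2al lies apart from the other Hist1 genes, at chr13:51202688-51203065, and is a protein-coding gene in the authors' table but a processed pseudogene in GENCODE M21. Hist1h2ae had 23, 16, 14 and 39 reads in vehicle and 10, 14, 25 and 8 in OPE (2.20 FPKM). Hist1h2ai had 6, 17, 19 and 6 in vehicle and 6, 7, 25 and 6 in OPE (1.64 FPKM). For Hist3h2a, Hist1h2al, Hist1h2ae and Hist1h2ai the counts of both groups overlapped.

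The 17 H2B genes held 42.6% of the reads, the largest share of the 5 types, and 5 of the 9 genes with at least 10 reads in every library. Hist3h2ba (chr11:58948920-58949533) had 356, 302, 280 and 260 reads in vehicle and 477, 319, 414 and 199 in OPE, at 29.3 FPKM the highest level of all 57 genes per length. Hist1h2bc (chr13:23684199-23692488) had 228, 231, 308 and 336 reads in vehicle and 197, 159, 281 and 168 in OPE, at 17.6 FPKM. Hist2h2be (chr3:96221119-96223738) had 182, 236, 243 and 245 reads in vehicle and 405, 245, 202 and 156 in OPE, at 4.94 FPKM. These 3 genes were well above the rest of their type, since the median of the 16 H2B genes other than Hist3h2ba was 0.337 FPKM, 87.2-fold below Hist3h2ba. At the other end, 9 H2B genes lacked reads in at least 1 library, among them Hist3h2bb-ps, an annotated pseudogene with 0, 4, 0 and 4 reads in vehicle and 1, 0, 7 and 5 in OPE.

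Hist2h2bb had 35, 45, 33 and 57 reads in vehicle and 165, 40, 32 and 36 in OPE, so that OPE 1 stood apart from the other 7 libraries. Its row covers chr3:96269721-96279001, and the identifier of the row belongs in GENCODE M21 to a long noncoding RNA, Gm42743. The Hist2h2bb gene of that annotation is a single stretch of 381 bases at chr3:96269752-96270132, near the start of the row's first exon. The reads of this row can thus come from the histone gene or from the rest of the longer transcript, and the counts do not separate them.

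H3 and H4 form the tetramer at the centre of the nucleosome. None of the 10 H3 genes reached 10 reads in every library, although 8 had reads in all, and the type held 3.19% of the reads. Hist2h3c2 had the most H3 reads, 103 in all, with 6, 6, 19 and 21 in vehicle and 13, 10, 19 and 9 in OPE. Hist1h3c was the highest per length at 1.20 FPKM, with 8, 5, 25 and 13 reads in vehicle and 8, 9, 13 and 6 in OPE. Both groups overlapped for Hist2h3c2 and Hist1h3c, and counts as low as 5 leave each library's value imprecise.

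The 12 H4 genes held 8.22% of the reads, and 7 had reads in all libraries. Hist1h4i (chr13:22040636-22041362) held 58.0% of the H4 reads, with 118, 135, 133 and 98 in vehicle and 92, 89, 97 and 56 in OPE, at 7.67 FPKM. The other 11 H4 genes had a median of 0.481 FPKM, so Hist1h4i stood 16-fold above it. Hist1h4k was next per length at 2.62 FPKM, with 30, 5, 10 and 23 reads in vehicle and 19, 19, 7 and 7 in OPE. Hist2h4 had 163 reads in all, between 6 and 44 per library. All 12 H4 genes encode 1 and the same protein of 103 residues in GENCODE M21, and the 10 H3 genes encode 2 proteins. The 11 H2A genes with a coding sequence encode 6 proteins, the 16 such H2B genes 11, and the 5 H1 genes 5.

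By cluster, the 48 Hist1 genes on chromosome 13 held 65.5% of the reads, the 5 Hist2 genes on chromosome 3 held 15.3%, the 3 Hist3 genes on chromosome 11 held 19.0%, and Hist4h4 on chromosome 6 held 0.163%. Reads in all 8 libraries were found for 30 of 48 Hist1 genes, 4 of 5 Hist2 genes, 2 of 3 Hist3 genes and not for Hist4h4. Within Hist1, the 26 genes between 23531050 and 23764358 held 54.4% of all reads of the 57 genes, and 18 of them had reads in every library. The 21 genes between 21715763 and 22043676 held 9.17%, and 11 of them had reads in every library. The difference between both stretches rests mostly on Hist1h1c and Hist1h2bc, since the medians of the genes were 0.621 and 0.481 FPKM.

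The level was set against how far the annotated transcript runs beyond the stem-loop. This distance is that of GENCODE M21, while reads were counted over the authors' gene models. The spans of both differed for 23 of the 57 genes. Hist1h1d, for example, has 744 bases in the authors' model and 7425 in GENCODE M21. For such genes the stretch past the stem-loop may not have been counted, or only in part. In 17 genes the transcript ended within 100 bases of it. Of these, 5 had reads in all 8 libraries, none had 10 reads in every library, and together they held 2.64% of the reads, with a median of 0.285 FPKM. In 21 genes the transcript ran on for more than 100 bases. Of these, 17 had reads in all libraries and 5 had at least 10 in every library, and together they held 67.0% of the reads, with a median of 0.756 FPKM. Hist1h1c runs on for 840 bases, Hist1h4i for 330 and Hist3h2ba for 169, and these 3 genes were the highest of the group. Hist3h2a runs on for 1643 bases. A long annotated end did not go with a high level in every case, as Hist4h4, with 2445 bases after its stem-loop, had the second lowest level of all 57 genes, 0.0660 FPKM.

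No stem-loop was found in the annotated transcripts of 19 genes, which held 30.3% of the reads at a median of 0.752 FPKM. In 10 of these the annotated transcript stops at the stop codon, so that the bases in which the stem-loop would lie are not part of it. Of the high genes, Hist1h2bc and Hist2h2be were in this group: the transcript of Hist1h2bc in GENCODE M21 is spliced, and that of Hist2h2be is 1 exon of 2620 bases. The hexamer AATAAA, the usual signal for adding a poly-A tail, lay in the last 50 bases of the transcript of 12 of the 57 genes, which held 69.4% of the reads; 65.8% of other protein-coding genes had it there. The medians with and without it were 0.567 and 0.551 FPKM, and Hist1h1c, Hist3h2ba and Hist2h2be were among the 12. These are features of the annotation of the reference strain, not of the CD1 libraries, and are given without a test.

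**Figure D2:**
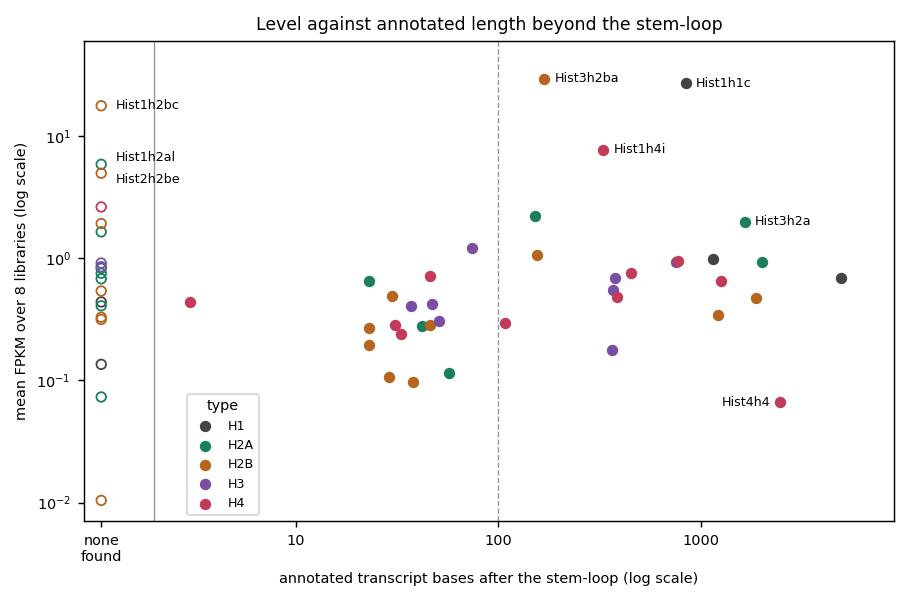
Mean FPKM over 8 libraries (vertical axis, log scale) against the annotated transcript bases after the stem-loop (horizontal axis, log scale), 1 point per gene, coloured by histone type; open circles at the left are the 19 genes with no stem-loop in their annotated transcript. The dashed line marks 100 bases. Between the solid and the dashed line no gene exceeds 1.20 FPKM, while open circles reach 17.6 FPKM. Distances are those of GENCODE M21, while FPKM rest on the authors' gene models, which are shorter for some genes.

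Histone genes are near copies of one another, so a read may match several. The share of each transcript's windows of 50 bases that occur in no transcript of a gene elsewhere in the genome was used to describe this. Genes overlapping at the same place were left aside, so a window shared with such a gene still counts as unique. Hist2h2bb and Hist3h2a have such overlaps, so their shares do not cover the uncertainty given above. It was taken from GENCODE M21 transcripts, not from the authors' gene models over which reads were counted. Hist1h2ac, for example, was 88.4% unique over 2482 bases, but its counted model has 476 bases. In its coding part 18.2% of windows were unique. Under 25% of windows were unique in 13 genes, which held 2.65% of the reads, and none of them had 10 reads in every library. In the 26 genes with 25 to 75% the share of reads was 23.5%, and 3 reached 10 reads in every library. In the 18 genes with at least 75% the share was 73.8%, and 6 reached it. The values differ within 1 gene. Of all windows, 91.5% were unique in Hist1h1c, 77.9% in Hist3h2ba and 71.1% in Hist1h4i. Of the windows lying wholly within the coding part, only 28.8% were unique in Hist1h4i and 2.43% in Hist1h2bc. The median share was 40.6% for the genes whose transcript ends near the stem-loop and 80.4% for those that run on, so the length beyond the stem-loop and the uniqueness cannot be told apart here. Across the 57 genes the Spearman correlation of mean FPKM was 0.21 with the unique share and 0.04 with the gene length of the table, given as a description because all share the same libraries. The sources used here do not give how reads that match several genes were counted, so the values of near-identical genes are uncertain.

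H2A and H2B genes often lie head to head with a short shared stretch between them. There were 11 such pairs among the 57 genes, with 172 to 301 bases between the starts of both rows. The pairs of Hist1h2aj and of Hist3h2bb-ps each include an annotated pseudogene. The FPKM of the higher partner was 1.21 to 43.0 times that of the lower, with a median of 2.61. The ratio was under 3 in 7 pairs and at least 10 in 2, and H2B was the higher partner in 4 of the 11. In the 7 pairs under 3 the order of the means held in only 4 to 6 of the 8 libraries. Among the 4, Hist1h2bp had 9 reads against 5 of Hist1h2an, and Hist1h2bk 35 against 24 of Hist1h2ah, so their order is uncertain. In the widest pair Hist2h2ac had 9 reads over all libraries and Hist2h2be 1914 (0.115 and 4.94 FPKM, 43.0-fold). In the next, Hist1h2ac had 65 reads and Hist1h2bc 1908 (0.921 and 17.6 FPKM, 19.1-fold). In both pairs the H2B gene was higher in all 8 libraries.

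**Figure D3:**
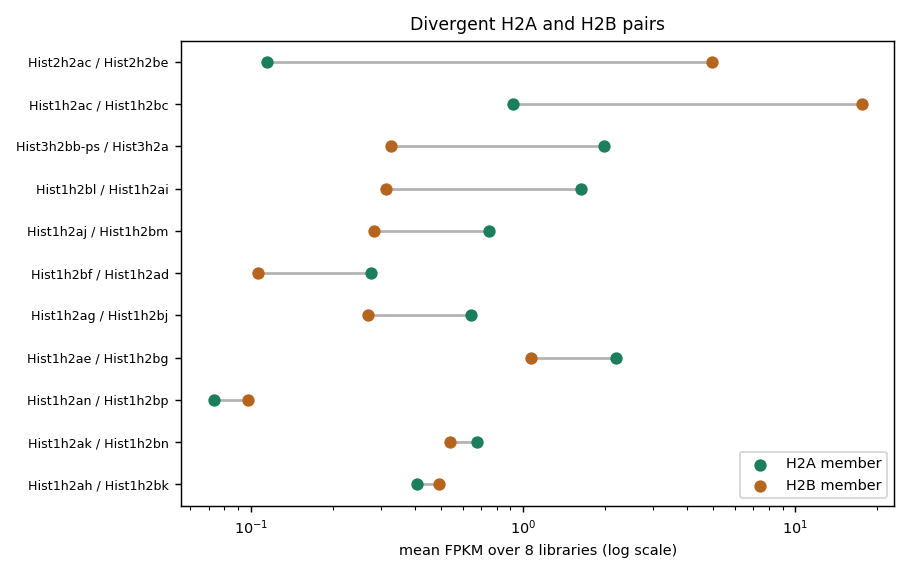
Mean FPKM over 8 libraries (horizontal axis, log scale) of the H2A gene (green) and the H2B gene (brown) of each of the 11 head-to-head pairs, ordered by their ratio. The pairs of Hist2h2be and Hist1h2bc lie far wider apart than the other 9, whose ratios reach 6.05 at most.

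The stretch between the genes of these 2 widest pairs is shown because both partners start from it. It is given as the promoter window of the H2A gene in RefSeq, build GRCm38.p6, on the minus strand, 5′ to 3′ in the direction of that gene. Capitals mark the TATA box letters TATAAA, the CCAAT box, and the octamer ATTTGCAT known from H2B promoters, or the reverse complements of the last pair. The windows are chr13:23683910-23684209 and chr3:96220831-96221130:
Hist1h2ac: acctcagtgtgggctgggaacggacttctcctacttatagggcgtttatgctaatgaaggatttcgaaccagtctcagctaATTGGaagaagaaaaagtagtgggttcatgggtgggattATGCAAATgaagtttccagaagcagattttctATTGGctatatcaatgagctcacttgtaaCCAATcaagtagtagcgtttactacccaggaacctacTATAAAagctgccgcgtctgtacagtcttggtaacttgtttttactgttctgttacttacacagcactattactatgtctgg
Hist2h2ac: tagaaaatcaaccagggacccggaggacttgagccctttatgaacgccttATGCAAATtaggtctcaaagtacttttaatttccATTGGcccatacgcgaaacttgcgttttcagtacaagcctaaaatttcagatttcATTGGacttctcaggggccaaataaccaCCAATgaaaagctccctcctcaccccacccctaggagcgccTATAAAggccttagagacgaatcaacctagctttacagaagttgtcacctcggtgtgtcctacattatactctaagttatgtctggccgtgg
Each window holds TATAAA once and the CCAAT box once on the strand of the H2A gene. The strand of the H2B gene holds the CCAAT box 2 times and the octamer once.

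A RefSeq promoter window was matched for 49 of the 57 genes. On either strand, TATAAA was present in 30 of them, CCAAT in 41 and ATTTGCAT in 11. Over all 27025 genes with such a window the shares were 15.7%, 41.1% and 1.97%. The octamer was found in 5 of 11 H2A and 6 of 14 H2B windows and in none of the H1, H3 and H4 windows. In every such H2A window it lay on the opposite strand, and in every such H2B window on the strand of the gene. Windows of head-to-head partners overlap, so the same octamer can be counted in both, as for Hist1h2ae and Hist1h2bg. CCAAT was in every matched window of H1, H2A, H2B and H3 but in 3 of 11 of H4. Of the 6 matched genes with at least 10 reads in every library, 2 held TATAAA, while CCAAT was in 5 and the octamer in 3. A match says only that the letters are there.

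Messages of most replication-independent histone genes carry poly-A tails and are not confined to S phase. Beside them the replication-dependent genes were a small part of the histone messages in these libraries. Their summed FPKM was 6.09 ± 0.388% (mean ± SD, n = 4) of all H1 in vehicle, with H1f0 and H1fx as the replication-independent H1 genes, and 6.14 ± 0.551% in OPE. For H2A the genes set beside them were H2afz, H2afv, H2afx, H2afy, H2afy2 and H2afj, and for H3 they were H3f3a and H3f3b. The share was 3.20 ± 0.181% in vehicle and 3.41 ± 0.275% in OPE for H2A, and 1.25 ± 0.464% and 1.23 ± 0.0809% for H3. H3f3b, which encodes the replacement histone H3.3, was at 439 ± 38.6 FPKM in vehicle and 430 ± 49.1 in OPE. H1f0, the linker histone of differentiated cells, was at 360 ± 40.9 and 403 ± 58.4 FPKM, and the H2A.Z gene H2afz at 190 ± 15.97 and 185 ± 37.5 FPKM. For each of these shares and genes the groups overlapped.

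**Figure D4:**
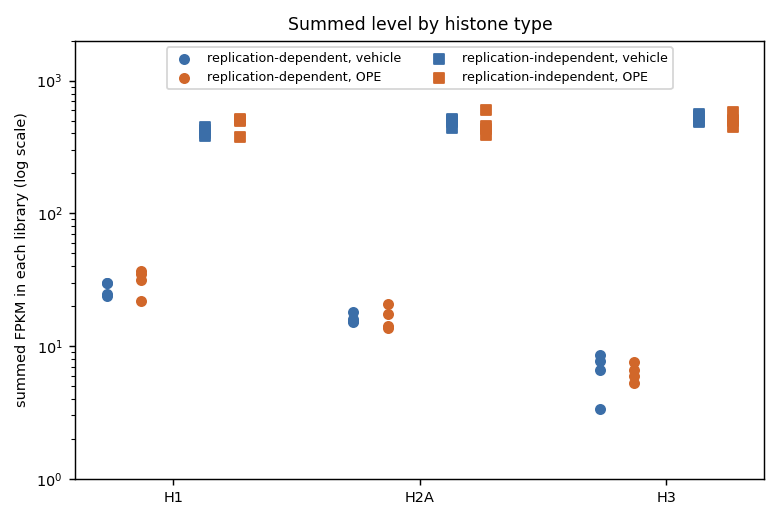
Summed FPKM in each library (vertical axis, log scale) of the replication-dependent genes (circles) and the replication-independent genes (squares) of H1, H2A and H3; blue is vehicle and orange OPE. In each type the circles lie more than 10-fold below the squares, with at most 36.9 FPKM in any library for the replication-dependent H1 genes and at least 379 for the others.

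The comparison of OPE with vehicle asked whether the mixture changed these messages. The share of all counted reads that came from the 57 genes was 0.0119, 0.0112, 0.0104 and 0.0103% in vehicle 1 to 4, and 0.0135, 0.0127, 0.0147 and 0.00899% in OPE 1 to 4. OPE 1 to 3 lay above all vehicle libraries and OPE 4 below them, so the groups overlapped, with means of 0.0109 ± 0.000768% and 0.0125 ± 0.00244%. The 95% exact binomial interval was 0.0141 to 0.0153% in the highest library, OPE 3, and 0.00852 to 0.00949% in the lowest, OPE 4, so these OPE libraries differed from each other by more than counting error. OPE 3 stood apart from the other libraries on the first principal component of all genes and OPE 1 on the second. The share of H4 among the reads of the 57 genes was 8.55 to 10.7% in vehicle and 6.48 to 8.27% in OPE. These ranges did not overlap, but the intervals of OPE 2 (7.07 to 9.59%) and OPE 4 (5.94 to 8.79%) reached into the vehicle range. H4 was picked out of the 5 types after the values were seen, and no test was made of this share.

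Of the 57 genes 15 passed the filter on low counts of the edgeR test, and 42 did not. None of the 15 was called by edgeR's quasi-likelihood test at an adjusted p under 0.05, where 0.477% of the 15517 genes tested were called, 0.0387% higher and 0.438% lower in OPE. DESeq2 and edgeR without the filter, which both gave all 57 genes a p, called none, and neither did limma-voom. At an unadjusted p under 0.05 there were 2 genes by edgeR (13.3%, against 13.2% of all genes tested), 5 of 57 by DESeq2, against 10.8% of all genes, and 2 of 15 by limma-voom, against 13.5%. DESeq2 gave an adjusted p to 38 of the 57. The log2 fold change of OPE over vehicle was above 0 for 9 of the 15 and below 0 for 6, with a median of 0.17 against 0.01 over all genes tested. None of the 15 had groups that did not overlap in CPM scaled by TMM, where 9.49% of all genes tested had such groups, 4.05% higher and 5.44% lower in OPE.

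The smallest p belonged to H2B genes. Hist1h2be was at 0.621, 0.663, 0.702 and 1.15 CPM in vehicle and 1.52, 1.52, 2.01 and 1.13 CPM in OPE. All OPE libraries were above the vehicle mean, but vehicle 4 was above OPE 4; the log2 fold change was 0.96 ± 0.31 (SE) with an edgeR adjusted p of 0.204. Hist2h2be was at 10.3, 12.03, 11.4 and 10.9 CPM in vehicle and 18.7, 16.2, 14.0 and 10.4 CPM in OPE. OPE 1 to 3 were above all vehicle libraries and OPE 4 was not, with a log2 fold change of 0.42 ± 0.17 (edgeR adjusted p = 0.323). Hist3h2ba was at 20.1, 15.4, 13.1 and 11.5 CPM in vehicle and 22.01, 21.1, 28.7 and 13.3 CPM in OPE. Again OPE 4 lay within the vehicle range and the other 3 above it, with a log2 fold change of 0.50 ± 0.23 (edgeR adjusted p = 0.381).

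Hist2h2bb was at 1.98, 2.29, 1.55 and 2.53 CPM in vehicle and 7.62, 2.65, 2.22 and 2.40 CPM in OPE, with a log2 fold change of 0.86 ± 0.39 (edgeR adjusted p = 0.384). Without OPE 1 the log2 fold change of Hist2h2bb was 0.21 (edgeR adjusted p = 0.775; over all alternatives adjusted p ran from 0.178 to 0.775). The linker gene Hist1h1c was at 42.0, 43.2, 32.8 and 33.4 CPM in vehicle and 50.4, 46.1, 59.5 and 30.6 CPM in OPE. OPE 4 was the lowest and OPE 3 the highest of all 8 libraries, and the log2 fold change was 0.30 ± 0.18 (edgeR adjusted p = 0.521). Hist3h2a had a log2 fold change of 0.21 ± 0.21 (edgeR adjusted p = 0.743).

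The 6 genes with values below 0 were all Hist1 genes. Hist1h4i was at 6.66, 6.88, 6.23 and 4.35 CPM in vehicle and 4.25, 5.89, 6.73 and 3.73 CPM in OPE. The groups overlapped over most of their range, with a log2 fold change of -0.23 ± 0.22 (edgeR adjusted p = 0.739). Hist1h2bc was at 12.9, 11.8, 14.4 and 14.9 CPM in vehicle and 9.09, 10.5, 19.5 and 11.2 CPM in OPE. OPE 3 was above all vehicle libraries and the other 3 OPE libraries were below them all, with a log2 fold change of -0.11 ± 0.22 (edgeR adjusted p = 0.894). Without OPE 3 the log2 fold change of Hist1h2bc was -0.40 (edgeR adjusted p = 0.14; from 0.14 to 0.983 over all alternatives). Hist1h2ae (-0.34 ± 0.47), Hist1h1e (-0.19 ± 0.43), Hist1h3c (-0.16 ± 0.50) and Hist1h4k (-0.13 ± 0.55) had standard errors larger than their log2 fold changes. By cluster, 3 of 9 Hist1 genes tested, 4 of 4 Hist2 genes and 2 of 2 Hist3 genes had a value above 0; the difference between clusters was not tested.

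**Figure D5:**
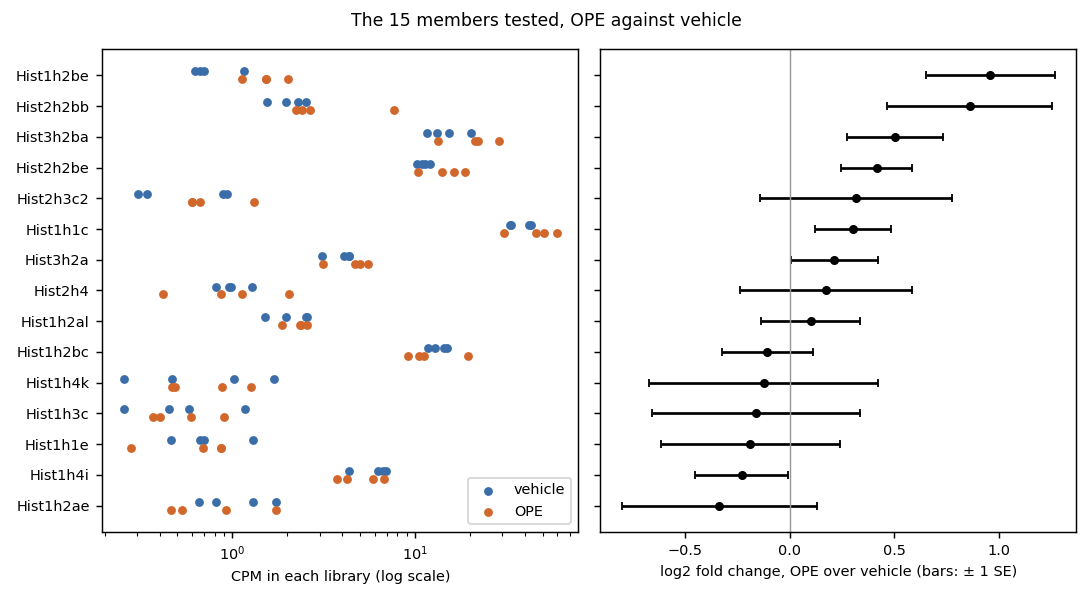
The 15 genes tested: left, CPM in each library (log scale), blue for vehicle and orange for OPE; right, log2 fold change of OPE over vehicle with bars of 1 SE from edgeR. The points of both groups overlap for each gene, and the log2 fold changes run from -0.34 (Hist1h2ae) to 0.96 (Hist1h2be).

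Hist4h4, the only gene of its cluster, did not pass the filter on low counts. It had 7, 5, 5 and 5 reads in vehicle and 0, 3, 1 and 2 in OPE, or 0.222 to 0.395 CPM and 0 to 0.199 CPM. All OPE libraries lay below all vehicle libraries, at counts so low that a few reads set the order. Without the filter the log2 fold change was -1.48 ± 0.79 by edgeR (adjusted p = 0.543) and -1.53 ± 0.93 by DESeq2 (adjusted p = 0.513), and neither called it. Hist2h2ac was close to the limit of detection, with 1, 2, 1 and 3 reads in vehicle and 0, 1, 0 and 1 in OPE.

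Genes that work on histone messages or histones gave no call either. Of the factors that transcribe, cut or degrade these messages, 21 were tested and edgeR called none. Slbp, which encodes the stem-loop binding protein, had a log2 fold change of -0.20 ± 0.16 (edgeR adjusted p = 0.676). Npat, which encodes the cofactor that switches these genes on in S phase, had -0.11 ± 0.15 (edgeR adjusted p = 0.825). None of 19 histone chaperone genes and none of 11 replication-independent histone genes was called, with medians of -0.03 and 0.02. Of the chaperone genes 12 were below 0 and 7 above. In these lists, overlap of the groups was looked at only for the few genes of smallest p, those called and some others such as Slbp and Npat. Groups did not overlap for Chaf1a (-0.54 ± 0.14, edgeR adjusted p = 0.133), Hirip3 (-0.35 ± 0.12, 0.218) and Asf1b (-0.62 ± 0.21, 0.223). Nor did they for Lsm10 (0.53 ± 0.18, 0.215) and Upf1 (-0.20 ± 0.08, 0.337) among the factors acting on the messages. Such groups were seen in 9.49% of all genes tested, which is not a like comparison for genes picked by smallest p. Of 37 S phase genes none was called, where 0.477% of all genes tested were. A value below 0 was found for 36 of them, with a median of -0.36, while 52.8% of all genes tested were above 0. Groups did not overlap for Rrm2 (-0.68 ± 0.17, edgeR adjusted p = 0.104), Uhrf1 (-0.61 ± 0.15, 0.107) and Ccne2 (-0.77 ± 0.20, 0.114), the S phase genes of smallest p. For the other S phase genes this was not counted. The median shift of the S phase genes from the vehicle mean was -0.78 in OPE 1 and ran from -0.32 to -0.14 over OPE 2 to 4. For the 15 histone genes tested the same measure was 0.14, 0.15, 0.32 and -0.15 in OPE 1 to 4 and -0.13 to 0.14 in vehicle, so the library with the lowest S phase level was not the one with the lowest histone level. All 7 macrophage genes had a value below 0, and edgeR called 5 of them lower in OPE. Of 5 endothelial, 5 erythroid and 5 muscle genes none was called, with medians of -0.48, 0.15 and -0.19. Of the endothelial genes 4 were below 0 and 1 above. Groups did not overlap for Cdh5 (-0.84 ± 0.21, edgeR adjusted p = 0.103) and Pecam1 (-0.70 ± 0.18, 0.116), while those of Kdr did. The part of these cell types in the histone values was not tested.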

How the data were processed

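RNA bound to poly-T beads was fragmented and copied with random primers, per the labels. Build mm10 and the tools HTSeq 0.6.1, STAR 2.5, CASAVA 1.8 and DESeq2 (version given as 2) stand in the submitters' processing notes. The sources used here give no annotation release, strand setting or treatment of reads with several matches. The authors' deposited table holds raw counts per gene, FPKM, a signal column (the count divided by 1 constant per library), gene lengths, and their own log2 fold changes and p-values. In the authors' deposited table the lowest adjusted p of the 57 genes was 0.159, and 14 had none.

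The test on counts was that of edgeR 4.0.16 under R 4.3.3 (scaling by TMM, filterByExpr, robust quasi-likelihood, group as the only term, two-sided, Benjamini-Hochberg over 15517 genes at 0.05). The SE is the log2 fold change over the square root of F. Alternatives were DESeq2 1.42.0, limma-voom (limma 3.58.1), other scalings and filters, a block for the replicate number, and leaving 1 library out at a time. The steps were tested on simulated data. Deposited FPKM were used for levels between genes. Replicates differed by more than counting noise.

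Transcripts came from GENCODE M21, where 54 genes were matched by identifier and symbol and 3 by symbol and position; 34 spans were the same in both annotations and 23 differed. Intervals cover counting error only.

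Genes named were the 12 of highest mean FPKM, the 4 of smallest p in each direction, all Hist3 and Hist4 genes, and the highest gene of each type in each cluster; Hist1h2bq, the pair partners and the stem-loop examples were added after their values were seen. Members, lists and rules were chosen with earlier results of these data known.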

Additional observations from a re-analysis of the deposited data

Results flagged for a closer look

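Of 52 groups of 4 libraries examined (CPM of the genes named and the shares of reads by histone type), 4 held a library far from the other 3; chance gives about 1 in 20 such groups. Hist1h2ai was at 1.73 CPM in OPE 3 and at 0.277 to 0.463 CPM in the other OPE libraries. Hist1h2be was at 1.15 CPM in vehicle 4 and at 0.621 to 0.702 CPM in the other vehicle libraries. Hist2h2bb was at 7.62 CPM in OPE 1 and at 2.22 to 2.65 CPM in the others of its group. Hist2h3c2 was at 1.32 CPM in OPE 3 and at 0.599 to 0.662 CPM in the others.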

How the results depend on the processing

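No gene of the 57 was called under any of the 15 alternatives. The number of all genes called, 74, was 131 with library totals, 136 without a filter and 492 with DESeq2, and lay between 7 and 308 when 1 library was left out; the cause was not tested. With the replicate block it was 62, with 0 of the 57 genes among them. Deviations from the group mean correlated at 0.31, 0.08, 0.01 and 0.09 between same-numbered libraries. Between libraries of different numbers the correlations ran from -0.34 to 0.36. With 4 libraries a group, these values cannot settle whether the numbers pair the libraries. Counting genes with a read in any library gave 57 in place of 36, and asking for 10 reads in every library gave 9, by construction. Without Hist1h1c the share of reads was 0.00708% in vehicle and 0.00789% in OPE. Of the values of single genes, 209 kept their sign and 12 changed it, these with an adjusted p of at least 0.765. Hist1h4k was 0.11 with limma-voom. With 1 library left out, the log2 fold change lay between -0.44 and 0.39 for Hist1h4k (above 0 without vehicle 1, OPE 3 or OPE 4), -0.37 and 0.14 for Hist1h1e (above 0 without vehicle 1 or OPE 3), and -0.47 and 0.35 for Hist1h3c (above 0 without vehicle 3 or OPE 1). It lay between -0.40 and 0.013 for Hist1h2bc and -0.34 and 0.43 for Hist2h4, each turned by OPE 1. It lay between -0.045 and 0.19 for Hist1h2al, turned by vehicle 3, and -0.023 and 0.58 for Hist2h3c2, turned by OPE 3. Depth limits the precision: 43 of the 57 genes had under 100 reads in all, and the size of difference that could be detected in the 42 genes under the filter was not measured.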
